A study of Mus musculus with 6 samples.

Results

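The glutathione and antioxidant enzymes of the mouse genome were examined in whole uterus. Genes were taken by symbol alone: the glutathione transferases, glutathione peroxidases, peroxiredoxins, thioredoxins and their reductases, superoxide dismutases, catalase, the enzymes that make and reduce glutathione, sulfiredoxin, Nqo1, the heme oxygenases, and the regulator pair Nfe2l2 and Keap1. The names selected 58 of 21936 genes in the deposited tables. The study compared uteri of Mettl3 f/f mice with uteri of Mettl3 d/d mice, collected on gestational day 4, with 3 libraries of each genotype. Females were 6 to 8 weeks old and had been mated with fertile males, the day of the vaginal plug counting as day 1. Mettl3 encodes the catalytic subunit of the complex that writes N6-methyladenosine on RNA. The labels name no Cre driver and no deleted exons, and they do not say that the libraries came from separate animals, so every p-value reflects only library-to-library spread, which may be technical.

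Glutathione is a small thiol peptide. Gclc and Gclm form the enzyme for the rate-limiting step of its synthesis, Gss completes it, and Gsr returns oxidized glutathione to the reduced form with NADPH. Transferases couple glutathione to electrophiles, peroxidases and peroxiredoxins reduce peroxides, thioredoxins reduce oxidized protein thiols, and superoxide dismutases and catalase remove superoxide and hydrogen peroxide. The transcription factor NRF2, encoded by Nfe2l2, drives many of these genes from antioxidant response elements, and KEAP1 holds it in check by directing its degradation. On day 4 the mouse uterus is at the preimplantation stage and is shaped by ovarian steroids.

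Values are FPKM, fragment counts scaled for gene length and library size. The unit was inferred, absolute depth is unknown, and an entry of 0 can stand for an estimate that failed. Libraries held totals of 535043 to 625575 FPKM and 15978 to 16359 genes above 0. The f/f libraries resembled each other more than the d/d libraries did: across genes, Spearman correlations were 0.984 to 0.988 within f/f and 0.951 to 0.965 within d/d. Mettl3 itself measured 30.3, 29.8 and 26.3 FPKM in the f/f libraries against 42.9, 30.1 and 46.5 in the d/d libraries (values are always in the order of replicates 1, 2 and 3; log2 fold change 0.43, adjusted p = 0.202). A whole-gene value does not check a deletion of unnamed exons, so d/d means the library so labelled throughout.

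Tests ran on log2(FPKM + 1) for the 12979 genes at 1 FPKM or more in at least 3 libraries, a scale that understates changes of low genes. A gene is said to have risen or fallen where limma gave a Benjamini-Hochberg adjusted p under 0.05 over all those genes, and each log2 fold change is d/d minus f/f. Plain folds are ratios of mean FPKM. They differ from the tested log2 fold changes, which are differences of mean log2(FPKM + 1). Of the 58 genes, 48 entered the test and 10 did not. The filter was met in both genotypes by 44 of the 48, in f/f alone by Gsta2 and Gstm6, and in d/d alone by Gsta3 and Mgst2. Gsta3 and Nfe2l2 rose, and Gsta2, Gstk1, Gstm2 and Gstm4 fell. That is 12.5% of the tested enzymes, against 7.30% of all genes tested. Gsta2 and Gsta3, which met the filter only through the genotype where they are high, are among the 6. At 1 FPKM or more in all 6 libraries, 4 of 44 enzymes were called (9.09%), against 6.20% of 11746 genes. Risers made up 4.17%, against 3.49% of all genes, and fallers 8.33%, against 3.81%. The members' median log2 fold change was 0.11, that of all genes 0.02. Genotypes did not overlap for 16 of the 48 (33.3%), a share below the 35.9% of all genes. Of these, 9 lay above f/f in d/d (18.75%, against 18.1%) and 7 below (14.6%, against 17.8%).

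In f/f uteri the 58 genes together came to 8454, 8297 and 8116 FPKM in replicates 1, 2 and 3, and in d/d to 6774, 6119 and 6517. The composition differed more than the total. The cytosolic and kappa transferases summed to 5148, 4797 and 5050 FPKM in f/f and to 3598, 1390 and 1267 in d/d, a mean of 4999 ± 181 against 2085 ± 1312 (SD, n = 3 each). They made up 60.9%, 57.8% and 62.2% of the summed level in f/f, and 53.1%, 22.7% and 19.4% in d/d. The remaining enzymes came to 3306, 3499 and 3066 FPKM in f/f against 3177, 4729 and 5250 in d/d, so d/d replicate 1 lay within the f/f range and the other two above it. Sums over members are descriptions and were not tested. In bulk tissue, fewer cells of a type and less RNA per cell cannot be told apart.

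**Figure D1:**
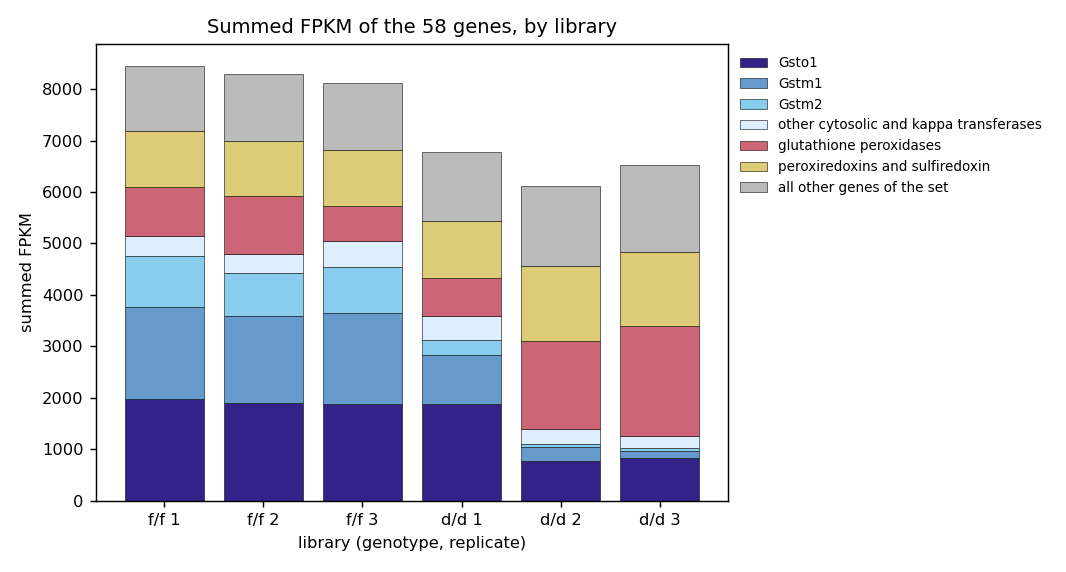
Summed FPKM of the 58 enzymes in each of the 6 libraries (vertical axis, linear from 0), stacked by gene or family. The transferase blocks for Gstm1 and Gstm2 shrink from 2526 to 2776 FPKM in the f/f libraries to 1232, 337 and 190 in d/d replicates 1, 2 and 3.

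The mu-class transferases lie side by side on chromosome 3, from the start of Gstm5 at 107895821 to the end of Gstm4 at 108044894 (GRCm38, GENCODE M21). They summed to 2927, 2675 and 2904 FPKM in f/f and to 1542, 482 and 250 in d/d. All 6 tested genes of the cluster had a negative log2 fold change with all libraries in, Gstm5 and Gstm7 turning positive when 1 library was left out, and 2 of them fell. Promoter sequence is shown for the called genes of this cluster and for Gstk1, Gsta3 and Nfe2l2, which were searched for an antioxidant response element. Each line gives the 250 bases before the transcription start, 5′ to 3′ on the gene's own strand (RefSeq, GRCm38.p6), and capitals mark a match to the element's core. The windows are chr3:107986421-107986670 (minus strand) for Gstm2, chr3:108044857-108045106 (minus) for Gstm4, chr6:42245685-42245934 (plus) for Gstk1, chr1:21240335-21240584 (plus) for Gsta3 and chr2:75704664-75704913 (minus) for Nfe2l2.
Gstm2: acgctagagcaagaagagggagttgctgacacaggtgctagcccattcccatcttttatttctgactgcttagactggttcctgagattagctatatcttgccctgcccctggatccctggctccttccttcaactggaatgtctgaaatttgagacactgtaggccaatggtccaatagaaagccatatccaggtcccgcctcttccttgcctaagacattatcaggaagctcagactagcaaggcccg
Gstm4: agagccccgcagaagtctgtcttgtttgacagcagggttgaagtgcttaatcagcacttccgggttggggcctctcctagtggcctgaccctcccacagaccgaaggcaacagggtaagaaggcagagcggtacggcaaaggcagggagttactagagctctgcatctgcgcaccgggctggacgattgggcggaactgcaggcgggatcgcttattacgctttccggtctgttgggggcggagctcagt
Gstk1: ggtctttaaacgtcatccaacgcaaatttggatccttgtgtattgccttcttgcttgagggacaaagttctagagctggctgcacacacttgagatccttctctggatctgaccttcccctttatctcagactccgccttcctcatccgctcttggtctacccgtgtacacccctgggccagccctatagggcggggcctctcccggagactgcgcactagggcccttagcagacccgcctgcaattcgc
Gsta3: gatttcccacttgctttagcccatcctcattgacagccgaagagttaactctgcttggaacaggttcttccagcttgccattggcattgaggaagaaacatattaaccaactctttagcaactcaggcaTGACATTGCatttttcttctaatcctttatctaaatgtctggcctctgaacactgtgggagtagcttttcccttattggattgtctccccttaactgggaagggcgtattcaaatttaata
Nfe2l2: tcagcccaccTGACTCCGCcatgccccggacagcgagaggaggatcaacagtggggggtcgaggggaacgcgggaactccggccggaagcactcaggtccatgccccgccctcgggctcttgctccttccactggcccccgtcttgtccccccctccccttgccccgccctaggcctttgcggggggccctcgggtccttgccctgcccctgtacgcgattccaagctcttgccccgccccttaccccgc

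The core searched was TGACNNNGC, on both strands, in windows from 250 bases before to 50 after each start. Both risers held a match, Gsta3 from position -121 and Nfe2l2 from position -240 relative to the start, and 0 of the 4 fallers did. Gsta3 and the faller Gsta2 met the filter only through the genotype where they are high. The counts are too small to set risers apart from fallers, and no difference was tested. Of the tested enzymes that were not called, 8 of 35 with a promoter in the table (22.86%) held one. The share was 10 of 51 (19.61%) over all these enzymes, 1728 of 10280 (16.81%) over genes tested and 3781 of 27025 (13.99%) over the table. The other matches were in Gclm, Gstm5, Gstm7, Mgst1, Prdx1, Sod1, Srxn1 and Txnrd1. A match describes letters in a window and is not a binding site.

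Gstm2, at 107981702 to 107986453 on the minus strand of chromosome 3, measured 985, 829 and 905 FPKM in f/f libraries against 296, 62.5 and 71.6 in d/d libraries. The highest d/d library was below the lowest f/f library. Gstm2 fell 6.33-fold, from 907 ± 78.1 to 143 ± 132 FPKM (SD, n = 3 each). Its tested log2 fold change was -3.03 (SE 0.58, 95% interval -4.43 to -1.63, adjusted p = 0.0352). Without d/d replicate 1, the highest d/d library, the change was -3.74 (adjusted p = 0.00253). Replicate 1 was the d/d library that stood apart, so this lower p adds no support for a fall. Dropping d/d replicate 2 instead put the limma adjusted p at 0.0472, and dropping d/d replicate 3 put it at 0.0664, above the threshold. With any 1 f/f library dropped, it was 0.126 to 0.149. The rank of Gstm2 among all genes by level went from 58, 80 and 60 in f/f to 190, 1632 and 1466 in d/d. Gstm1, the most abundant mu-class enzyme, at 108012255 to 108017973 on the minus strand, measured 1791, 1696 and 1772 FPKM in f/f libraries against 936, 275 and 118 in d/d libraries. Its genotypes did not overlap either, but d/d replicate 1 stood far above the other d/d libraries and the gene did not pass the test (-2.48, 95% interval -4.18 to -0.79, adjusted p = 0.0842). Without d/d replicate 1 it passed, at -3.28 (adjusted p = 0.0141). That fit leaves out the library that stood apart, so its pass is no support for a fall. Leaving out d/d replicate 1 or 2 also raised the calls over all genes, from 947 to 1319 and 1367. By annotation, 18.9% of the 50-base words of Gstm1 exons occur elsewhere in the transcriptome, mainly in the pseudogene Gstm2-ps1, against 5.66% for Gstm2.

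Gstm4 measured 10.7, 9.86 and 11.1 FPKM in f/f libraries against 5.64, 5.95 and 5.53 in d/d libraries, a fall of 1.85-fold (log2 fold change -0.78, SE 0.13, adjusted p = 0.0253). Its d/d libraries lay close together, unlike those of Gstm1 and Gstm2. Gstm5 was level in the same libraries, at 69.4, 72.4 and 67.8 FPKM against 79.2, 73.2 and 51.8 (adjusted p = 0.861). Gstm7 was the most scattered, at 67.7, 63.0 and 141 FPKM in f/f and 221, 64.0 and 2.90 in d/d, and its interval of -4.56 to 2.25 leaves its direction unsettled. Gstm6 was listed at 2.99, 3.72 and 6.44 FPKM against 3.80, 1.31 and 0.420 (adjusted p = 0.225).

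Gstk1, the kappa-class enzyme of mitochondria and peroxisomes (chromosome 6, 42245935 to 42250447, plus strand), measured 36.4, 33.2 and 37.4 FPKM in f/f libraries against 9.54, 10.9 and 15.3 in d/d libraries. All d/d libraries were low, d/d replicate 1 included. Gstk1 fell 2.99-fold, from 35.6 ± 2.2 to 11.9 ± 2.99 FPKM (SD, n = 3 each; log2 fold change -1.53, SE 0.19, 95% interval -1.98 to -1.08, adjusted p = 0.0139). It had the lowest adjusted p of the 48 enzymes.

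The alpha class moved in both directions. Gsta2 (chromosome 9, 78331018 to 78355788) measured 5.32, 3.89 and 6.86 FPKM in f/f libraries against 1.77, 0.272 and 0.474 in d/d libraries, and fell (log2 fold change -1.85, SE 0.35, adjusted p = 0.0341). Gsta3 (chromosome 1, 21240589 to 21265661), known for isomerizing steroid precursors as well as conjugating glutathione, measured 1.04, 0.525 and 1.28 FPKM in f/f libraries against 2.51, 6.33 and 5.95 in d/d libraries, and rose (1.55, SE 0.34, adjusted p = 0.0475). No library of one genotype reached the other for either gene. The ratio of Gsta2 to Gsta3 was 5.14, 7.40 and 5.36 in f/f and 0.708, 0.0430 and 0.0796 in d/d. Both are low-level genes that met the filter through 1 genotype. Of the 50-base words of Gsta2 exons, 49.8% are shared with other genes, chiefly Gsta1, against 0.273% of Gsta3's. Gsta4, which conjugates the lipid peroxidation product 4-hydroxynonenal, was listed at 88.9, 83.8 and 86.2 FPKM against 58.7, 22.7 and 51.3. It did not overlap but did not pass (-1.05, adjusted p = 0.116), and passed without d/d replicate 2 (-0.64, adjusted p = 0.0351). Replicate 2 was the d/d library that stood apart, so that pass is no support for a fall.

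Gsto1, the omega-class enzyme with glutaredoxin-like activity, was the most abundant of all 58 genes, at 1982, 1894 and 1872 FPKM in f/f. In d/d it was listed at 1887 in replicate 1, within the f/f range, and only 766 and 841 in the other libraries. The difference did not pass with all libraries (-0.84, adjusted p = 0.199) and passed without d/d replicate 1 (-1.25, adjusted p = 0.0138). Gstt1, of the theta class, showed the opposite odd library: 27.1, 26.4 and 27.4 FPKM in f/f against 10.6, 36.6 and 12.3 in d/d (adjusted p = 0.397, and 0.0133 without d/d replicate 2). For Gsto1 and Gstt1 the library left out was the one that stood apart, so these passes are no support for a fall. Gstz1, which also acts in tyrosine breakdown, was lower in every d/d library without passing, at 35.0, 39.6 and 57.8 FPKM against 30.9, 19.1 and 24.0 (-0.81, adjusted p = 0.102). Gstt2 and Gstt3 overlapped between genotypes.

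**Figure D2:**
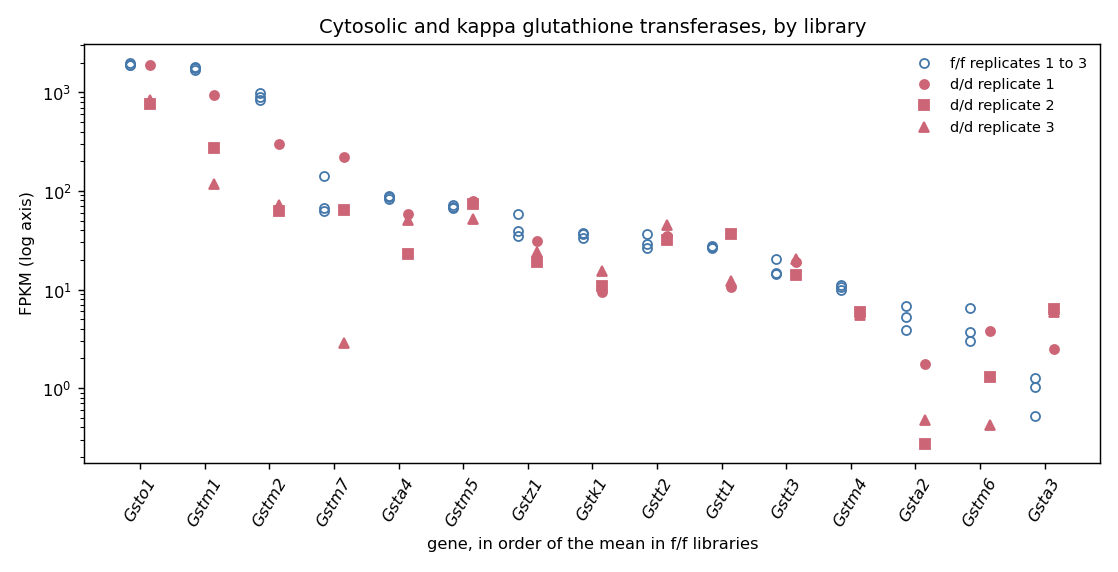
FPKM of the 15 tested cytosolic and kappa transferases in each library (log axis), f/f and d/d side by side, 1 point per library. Gstk1, Gstm2 and Gstm4 separate the genotypes in all 6 libraries, while Gsto1, Gstm7 and Gstt1 have d/d points that lie on both sides of, or within, the f/f range.

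The 10 genes that could not be tested were all near or at 0. Gpx5, Gpx6, Gstp1, Gstp2, Gstp3 and Txnrd2 were listed at 0 in all 6 libraries. Gstp1 and Gstp2 share sequence, with 33.7% and 54.3% of their 50-base words found elsewhere, so for them a 0 need not mean absent RNA. Gsto2 was listed at 1.05, 0.360 and 0.802 FPKM in f/f against 0.202, 0.258 and 0.197 in d/d. Gsta1, Gstm3 and Gstt4 stayed under 0.5 FPKM in every library.

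Nfe2l2, the gene of NRF2, was higher in every d/d library. It lies on the minus strand of chromosome 2, at 75675513 to 75704641, and measured 67.7, 67.3 and 72.2 FPKM in f/f libraries against 99.8, 121 and 122 in d/d libraries. The mean went from 69.0 ± 2.75 to 114 ± 12.6 FPKM (SD, n = 3 each), 1.66-fold higher (log2 fold change 0.71, SE 0.12, 95% interval 0.41 to 1.02, adjusted p = 0.0289). Keap1 was listed at 28.8, 24.9 and 26.4 FPKM against 36.1, 26.0 and 33.4, an overlap (0.23, adjusted p = 0.383). Transcript level says nothing of NRF2 protein, whose stability KEAP1 controls.

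None of the 4 enzymes of glutathione synthesis and reduction passed. Gsr, the reductase, measured 28.3, 34.4 and 27.2 FPKM in f/f libraries against 46.2, 47.8 and 101 in d/d libraries, higher in every d/d library (1.00, SE 0.31, 95% interval 0.24 to 1.76, adjusted p = 0.106). Gss was listed at 11.6, 10.9 and 12.4 FPKM against 12.4, 13.0 and 37.3, so it barely separated except in d/d replicate 3 (adjusted p = 0.387). Gclc, the catalytic subunit, ranged from 16.3 to 45.5 FPKM in d/d around an f/f range of 19.7 to 24.4. Gclm, the modifier subunit, overlapped throughout.

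Of the microsomal transferases, which sit in membranes, Mgst1 was the most abundant, at 177, 172 and 183 FPKM against 241, 174 and 217 (adjusted p = 0.366). Mgst3 was listed at 16.0, 17.2 and 17.2 FPKM against 19.2, 26.9 and 42.3, without overlap (0.71, adjusted p = 0.165). Mgst2 exceeded 2 FPKM in d/d replicate 2 alone, at 5.28.

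None of the 6 tested glutathione peroxidases passed. Gpx2, the epithelial form known from the gut, came closest: 63.1, 94.0 and 80.7 FPKM in f/f and 120, 148 and 135 in d/d, with no overlap (0.76, SE 0.18, 95% interval 0.33 to 1.2, adjusted p = 0.0558). Gpx1, the main cytosolic peroxidase, made up 49.2% to 78.1% of the family's summed level over the 6 libraries. It measured 594, 713 and 401 FPKM in f/f and 432, 841 and 1666 in d/d, and overlapped (adjusted p = 0.480). Gpx3, the secreted form, reached 548 FPKM in d/d replicate 2 while the other d/d libraries stood at 73.3 and 150, against 126, 166 and 57.9 in f/f. Gpx4, which reduces lipid hydroperoxides, was level at 11.7 to 15.9 FPKM over all libraries, but 34.7% of its 50-base words occur in a pseudogene. Gpx7 and Gpx8, of the endoplasmic reticulum, overlapped.

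Prdx6, a peroxiredoxin that also acts on phospholipid peroxides, measured 135, 140 and 165 FPKM in f/f libraries against 219, 217 and 208 in d/d libraries. The d/d libraries lay close together and above all f/f libraries, and the adjusted p was 0.0516 (0.55, SE 0.12, 95% interval 0.25 to 0.85). The other 5 peroxiredoxins and Srxn1, which repairs overoxidized peroxiredoxins, overlapped between genotypes. Prdx2, the most abundant, was listed at 422, 398 and 391 FPKM against 365, 386 and 476 (0.01, adjusted p = 0.971). Prdx5 reached 344 FPKM in d/d replicate 2, against 111 to 135 in f/f. Prdx3, the mitochondrial form, was below f/f in 2 d/d libraries (44.9 and 41.2 against 62.7 to 64.4 FPKM) and above in replicate 3, 69.7. It passed without that library (-0.55, adjusted p = 0.0375), the one that stood apart, so the pass is no support for a fall.

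Among thioredoxin genes, Txnrd1, the cytosolic reductase, was higher in every d/d library, at 40.7, 40.2 and 41.2 FPKM against 45.0, 61.4 and 99.1, and did not pass (0.66, adjusted p = 0.192). Txn1, Txn2 and Txnrd3 overlapped. Superoxide dismutases and catalase all overlapped: Sod1, the most abundant, was listed at 314, 333 and 344 FPKM against 302, 353 and 304, and Cat at 36.0, 32.9 and 33.8 against 32.7, 34.7 and 18.7. Hmox1, the inducible heme oxygenase, measured 13.1, 15.7 and 11.4 FPKM in f/f libraries against 19.1, 70.4 and 24.7 in d/d libraries, higher in each d/d library and highest by far in replicate 2 (1.22, SE 0.47, 95% interval 0.09 to 2.35, adjusted p = 0.162). Nqo1, a quinone reductase much used as an NRF2 readout, was listed at 5.72, 6.48 and 3.91 FPKM against 2.99, 2.93 and 8.27 (-0.25, adjusted p = 0.705). A missed threshold does not show that levels were alike: the intervals for Hmox1, Gsr and Gpx2 exclude 0 before adjustment. So do those of Mgst3 and Prdx6, and on the lower side those of Gstm1, Gsta4 and Gstz1. Such intervals were common: limma gave unadjusted p under 0.05 for 7 higher and 7 lower of the 48 enzymes. Over all 12979 genes tested, 1700 were higher and 1760 lower at that cut.

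**Figure D3:**
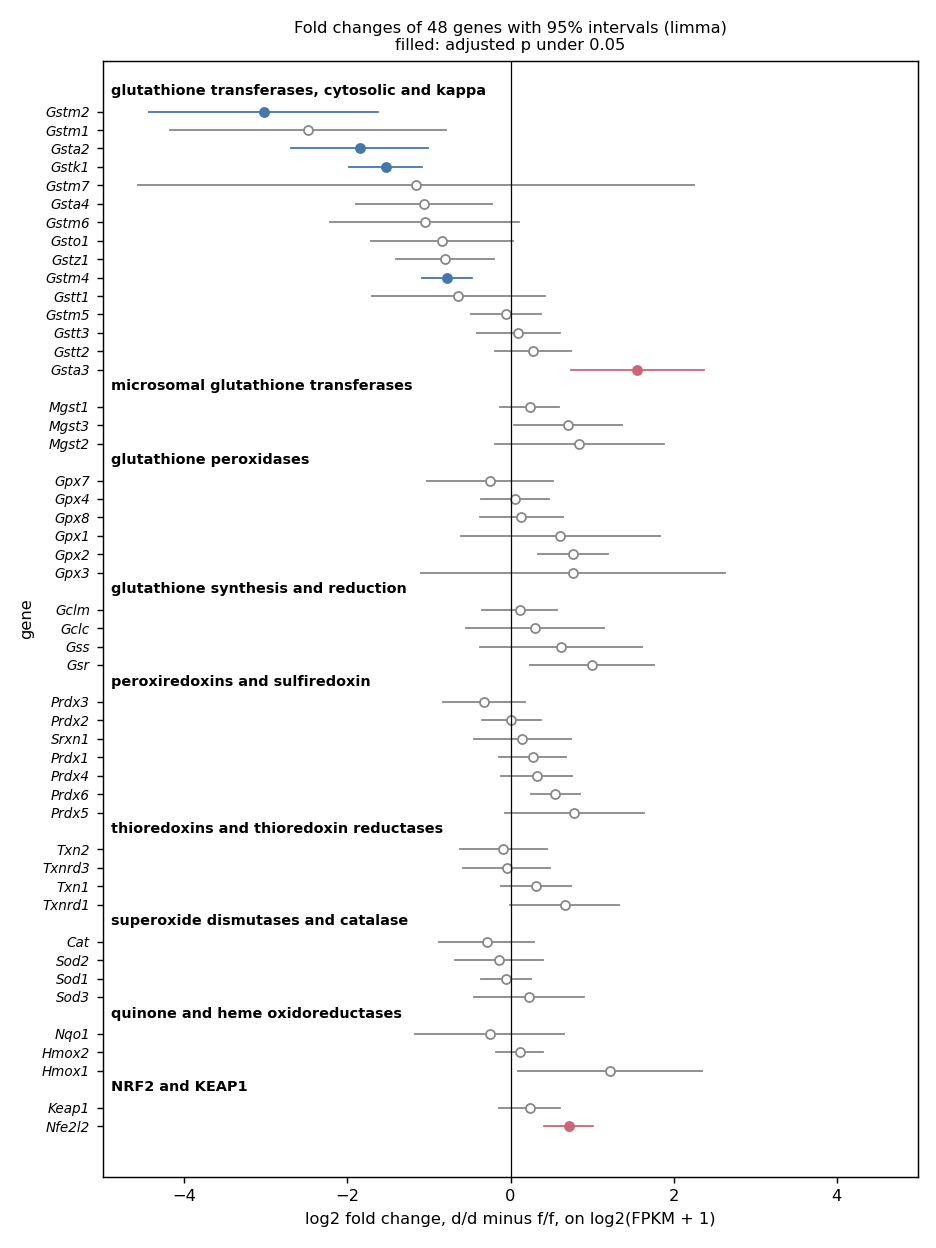
Log2 fold change of d/d over f/f (horizontal axis, on log2(FPKM + 1), bars for 95% intervals) for the 48 tested enzymes, grouped by family, filled where adjusted p is under 0.05. The 4 filled points below 0 are all cytosolic or kappa transferases, and the filled points above 0 are Gsta3 and Nfe2l2.

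By family, the cytosolic and kappa transferases had 1 riser and 4 fallers of 15 tested, with a median log2 fold change of -0.84, and held all 7 enzymes whose d/d libraries lay below every f/f library. Over all genes tested, 7.30% were called and 17.8% lay below in this way. Nfe2l2 was the single call outside them. Median log2 fold changes were 0.71 for the 3 microsomal transferases, 0.46 for synthesis and reduction (4 genes), 0.37 for the peroxidases (6), 0.27 for peroxiredoxins with sulfiredoxin (7), 0.13 for thioredoxin genes (4) and -0.10 for superoxide dismutases with catalase (4). These differences between families were not tested.

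The d/d libraries differed from each other more than f/f libraries did. The median SD of a member on the log2 scale was 0.125 over f/f and 0.444 over d/d, against 0.126 and 0.301 for all genes. In d/d replicate 1, 0 of the 48 enzymes were at least 2-fold above every f/f library and 4 at least 2-fold below. In d/d replicate 2 the counts were 5 and 7, and in d/d replicate 3 they were 6 and 8. The same counts were not made over all genes, so they do not set the enzymes apart from other genes. The high genes were not the same: Gpx3, Gsta3, Hmox1, Mgst2 and Prdx5 in replicate 2, and Gpx1, Gsr, Gss, Gsta3, Mgst3 and Txnrd1 in replicate 3, with Gsta3 shared. Gsta2, Gstk1 and Gstm2 were at least 2-fold below in all 3.

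**Figure D4:**
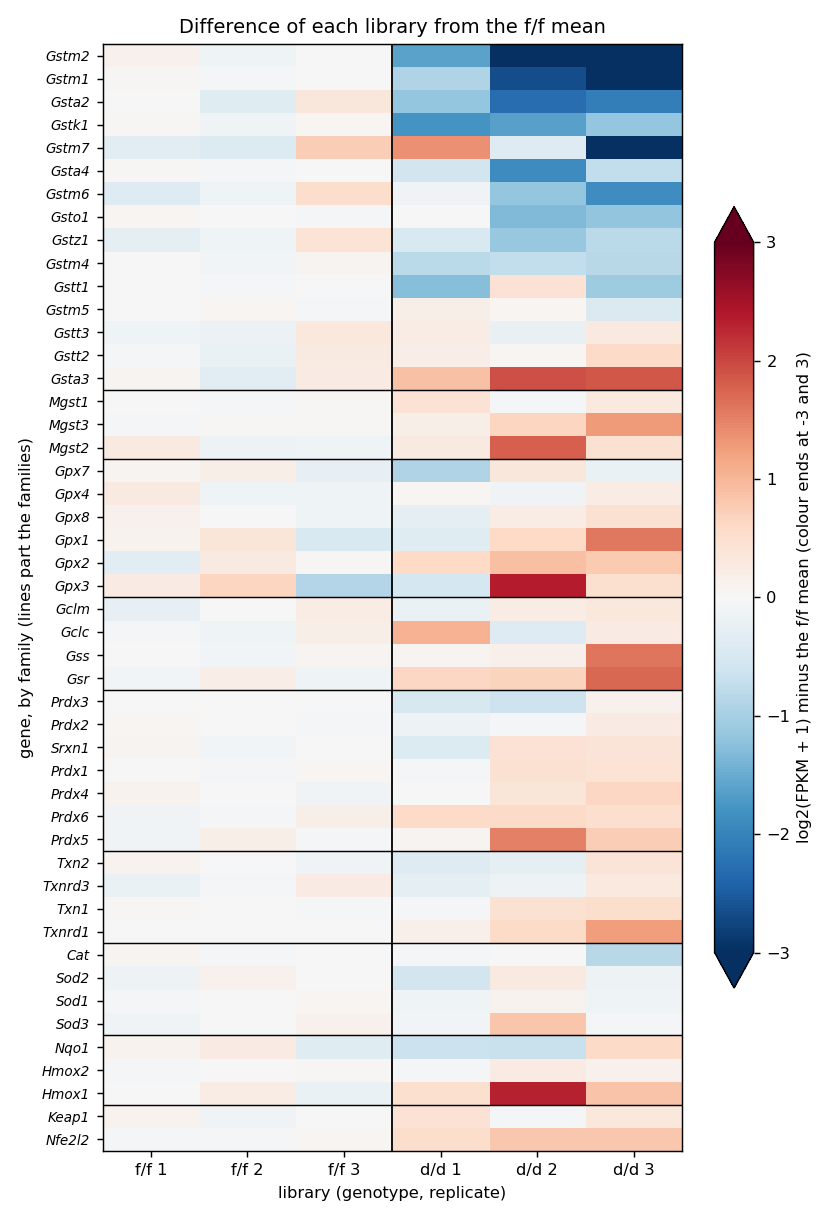
Log2(FPKM + 1) minus the f/f mean for 48 enzymes (rows, by family) in the 6 libraries (columns), colour running from -3 to 3. The f/f columns stay near 0, and d/d replicates 2 and 3 depart further than d/d replicate 1, with transferase medians of -0.47, -1.13 and -1.08 in d/d replicates 1, 2 and 3.

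Markers of cell types moved in the same libraries. Summed neutrophil markers were 6.58 to 13.3 FPKM in f/f and 28.6, 1137 and 29.2 in d/d, with Elane at 0 in all libraries, and 0 of 5 tested were called. In d/d replicate 3 most of that sum was Ly6g (25.0 FPKM), while Csf3r (1.37), S100a8 (0.238) and S100a9 (listed at 0) were below every f/f library. Macrophage markers were 323 to 455 FPKM against 1059, 3539 and 449, with 1 of 9 risen. Replicate 2 of d/d, where Hmox1, Gpx3 and Prdx5 were highest, was also highest for both sums, and for the stromal and lymphocyte sums below. In d/d replicate 3 the macrophage sum lay within the f/f range. There Hmox1 (24.7 FPKM) and Prdx5 (201) were above every f/f library, and Gpx3 (150) was not. Luminal and shared epithelial markers came to 1596 to 1817 FPKM against 2529, 977 and 3815 (3 of 13 rose), and glandular markers to 90.5 to 123 against 127, 48.0 and 39.7 (1 rose and 2 fell of 6). In the luminal and shared list, Calb1, Lpar3 and Cldn3 went the other way, below every f/f library in each d/d library, without being called. Stromal markers came to 2935 to 3279 FPKM against 1889, 4450 and 3484 (1 rose and 1 fell of 10), smooth muscle to 2583 to 6096 against 1162, 2089 and 4819 (2 fell of 10), and endothelium to 487 to 751 against 397, 489 and 281 (1 fell of 10). Lymphocyte markers came to 41.8 to 62.7 FPKM against 26.9, 94.2 and 6.65, and red blood cell markers to 68.3 to 215 against 24.2, 30.6 and 76.9, with 0 called in either. Mesothelial markers came to 57.6 to 78.2 FPKM against 53.4, 41.9 and 14.8 (1 fell of 3). Most of that sum was Wt1, the faller, at 75.3, 66.3 and 56.8 FPKM against 30.9, 25.9 and 13.4. Upk3b went the other way, at 0.650, 0.645 and 0.153 FPKM against 7.47, 3.50 and 1.15. Msln, Lrrn4 and Upk1b were above every f/f library in d/d replicates 1 and 2 but not in replicate 3. Oviduct and cilia markers came to 31.0 to 102 FPKM against 23.6, 6.21 and 4.97 (0 called). Ovarian markers came to 8.79 to 10.4 FPKM against 9.22, 10.6 and 4.70, with Fshr and Zp3 at 0, and trophoblast and blastocyst markers to 192 to 241 against 287, 116 and 241, with Cdx2, Pou5f1 and Prl3d1 at 0 and 0 called in either. Krt18, also counted among the epithelial markers, made up nearly all of the trophoblast and blastocyst sum, at 193, 190.0 and 238 FPKM against 286, 115 and 241. The part of these shifts in the enzyme results was not tested.

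Genes around the enzymes were taken from 8 pathway lists, whose counts stand against 3.49% of all tested genes called higher and 3.81% called lower. In glutathione supply and turnover, 2 of 25 rose and 3 fell. Slc7a11, the cystine importer that feeds glutathione synthesis, measured 1.26, 1.00 and 1.00 FPKM in f/f libraries against 8.85, 8.09 and 4.87 in d/d libraries, and rose (1.95, adjusted p = 0.0135). Chac1, which degrades glutathione, measured 0.161, 0.199 and 0.20 FPKM against 1.93, 1.44 and 2.40 and also rose (1.29, adjusted p = 0.0224). It met the filter through d/d alone, the genotype where it is high. Ggt7, a gamma-glutamyltransferase family member, was listed at 6.72, 7.38 and 6.17 FPKM against 2.35, 2.21 and 2.73 and fell (-1.18, adjusted p = 0.0160). Cth, which makes cysteine from cystathionine, was listed at 8.09, 8.91 and 13.1 FPKM against 3.53, 1.79 and 0.572 and fell (-2.00, adjusted p = 0.0396). Cth met the filter through f/f alone, the genotype where it is high. The third faller, Oplah, which recycles oxoproline to glutamate, is named after its value was seen (-0.67, adjusted p = 0.0455).

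Of other genes known to respond to NRF2, 2 of 14 rose and 1 fell, against 7.30% of all genes called in either direction. Ephx1, the microsomal epoxide hydrolase, was listed at 19.2, 20.6 and 20.6 FPKM against 44.2, 42.4 and 39.2 (1.02, adjusted p = 0.00992). Slc40a1, the iron exporter ferroportin, was listed at 4.04, 4.32 and 6.59 FPKM against 48.9, 47.1 and 152 (3.60, adjusted p = 0.0174). Aox1, an aldehyde oxidase, was listed at 4.00, 3.79 and 4.97 FPKM against 1.59, 1.26 and 0.992 and fell (-1.21, adjusted p = 0.0228). Like Cth, Aox1 met the filter through f/f alone, where it is high. Among NRF2 regulators and partners 0 of 11 passed, with Nfe2l3 nearest (1.78, adjusted p = 0.0569). Of oxidant-producing enzymes, 2 of 14 rose and 2 fell. Noxo1, an organizer of NADPH oxidase, was listed at 3.29, 4.93 and 2.82 FPKM against 23.3, 44.7 and 15.4 (2.52, adjusted p = 0.0238). Cyba, the oxidase subunit p22phox, was listed at 97.7, 90.3 and 94.2 FPKM against 201, 453 and 236 (1.55, adjusted p = 0.0366). The monoamine oxidases Maoa (-1.41, adjusted p = 0.0117) and Maob (-4.84, adjusted p = 0.00365) fell. Of metal and heme binding genes 1 of 7 fell, Mt1, a metallothionein, from 1907, 2282 and 1535 FPKM to 610, 253 and 489 (-2.15, adjusted p = 0.0262). In NADPH supply 1 of 13 fell, Aldh1l1 (-1.05, adjusted p = 0.0343), though the list's median log2 fold change was 0.37. Me1 (1.14, adjusted p = 0.0744), H6pd (1.10, adjusted p = 0.0810) and Pgd (0.93, adjusted p = 0.102) were higher in every d/d library without passing. In the thiol redox list (18 genes) and the selenoprotein list (15) 0 passed, with Sesn2 (adjusted p = 0.0782) and Sephs2 (adjusted p = 0.0666) nearest.

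The calls on the enzymes depend on the f/f libraries. Without any 1 of the f/f libraries, every one of the 6 calls was lost, at adjusted p of 0.0725 to 0.180. Of the 14 called pathway genes named above, 13 were lost without each of the f/f libraries in turn; Maob kept its call without f/f replicate 2 or 3. Cth also lost its call without d/d replicate 2, Cyba without d/d replicate 3, and Oplah without d/d replicate 1 or 3. Gstm2 and Gsta2 lost their calls without d/d replicate 3, and Gsta3 without d/d replicate 2 or 3. With all libraries in, 3 against 3 allows no exact permutation p below 0.1, and the 6 called enzymes each reached that smallest value. Every gene whose genotypes do not overlap reaches it, as 16 of the 48 enzymes did. Over all genes tested 35.9% did not overlap, so this value gives the 6 calls no support.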

How the data were processed

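Total RNA of whole uterus was extracted with TRIzol and sequenced as Illumina TruSeq libraries, per the labels' protocols. The authors deposited 1 table per library with 1 value per gene, taken here as FPKM because Cufflinks 2.2.1 and HISAT2 2.2.1 stand in the submitters' processing notes; headers name no unit. Builds mm9 and mm10 are listed, their role not given in the sources used here.

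The 36 rows that repeat a symbol were dropped in favour of the row with the highest mean. Genes at 1 FPKM or more in at least 3 of 6 libraries were tested by limma 3.58.1 (R 4.3.3) after a log2(FPKM + 1) transform (genotype alone, empirical Bayes with trend, two-sided), with Benjamini-Hochberg adjustment. Single members also had an exact permutation test. The fit was tested on simulated data, with pass criteria applied only to draws of equal spread in both genotypes, unlike the spread found here. Alternatives covered the pseudocount, filter, scaling, genotype weights, trend, replicate number as a block, rows sharing a symbol, and leaving out each library.

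Named were members that passed, the lowest unadjusted p per family, members without overlap, and up to 4 genes by p per pathway list. Members and lists were chosen with earlier results of these data known. Exon overlaps used GENCODE M21.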

Additional observations from a re-analysis of the deposited data

How the results depend on the processing

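Over all genes, 947 passed. With the replicate block 100 passed, and leave-one-library-out fits gave 0 (without f/f replicate 1, with 2292 at unadjusted p under 0.05) to 1367 (without d/d replicate 2), with 30 and 111 on leaving out f/f replicates 2 and 3, 1319 without d/d replicate 1 and 1005 without d/d replicate 3. Risen members numbered 2; they numbered 1 with no filter, with the mean filter and with genotype weights, 0 with the replicate block, and 0 to 2 with a library left out. Fallen members numbered 4, against 2 with no filter, 5 with genotype weights (Gstm1 gained, adjusted p = 0.0436), 0 with the replicate block (16 members and 3056 genes at unadjusted p under 0.05 there) and 0 to 6 with a library left out. Without an f/f library 0 members passed, with 10 to 12 of 48 at unadjusted p under 0.05, against 2259 to 2464 of all 12979 genes. The pseudocount, median-ratio scaling, quantile normalization, equal totals, no trend and summed rows gave 2 risen and 3 or 4 fallen. The cause of each change was not tested. The labels share replicate numbers, but same-numbered libraries did not deviate together (correlations -0.020, 0.020 and -0.021), so the block is no evidence on pairing. No library correlated best with the library of its own number.

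Of 768 member values under alternatives, 702 kept direction and side, 34 lost the threshold, 6 gained it and 26 reversed sign, in 15 members, none of them among the 6 called, with adjusted p of 0.435 or more. Prdx2 (main 0.01) went to -0.013 with median-ratio scaling, -0.18 with quantile normalization and -0.092 with equal totals. Gpx4 (main 0.06) went to -0.0027 with quantile normalization and -0.037 with equal totals. With a library left out, the log2 fold changes ranged from -0.026 to 1.42 for Gpx3, -0.024 to 0.19 for Gpx4, -0.55 to 0.073 for Gpx7, -0.033 to 0.35 for Gpx8, -0.072 to 0.64 for Gclc, -0.0086 to 0.26 for Gclm, -0.18 to 0.12 for Gstm5, -2.42 to 0.49 for Gstm7, -0.0013 to 0.26 for Gstt3, -0.10 to 0.088 for Prdx2, -0.0070 to 0.42 for Srxn1, -0.35 to 0.063 for Sod2, -0.066 to 0.39 for Sod3, -0.32 to 0.060 for Txn2 and -0.23 to 0.078 for Txnrd3. Scaling moved the median of all genes from 0.02 to 0.00, -0.02 and -0.07, and the share of calls that were higher from 47.8% to 45.8%, 43.4% and 37.9%. Depth behind the FPKM values is unknown, and low genes such as Gsta2 and Gsta3 depend on it and on the pseudocount: Gsta2 had adjusted p = 0.0503 with a pseudocount of 0.1.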
